A study of Mus musculus with 5 samples.

Results

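The cytochrome P450 genes were taken by their names in the deposited gene tables: Cyp, a family number, a subfamily letter and a gene number. The vitamin D genes Cyp24a1 and Cyp27b1 were left out, and names of another form, such as Cyp51 or Cyp4a12a, were not taken. This gave 91 genes of the 35478 listed, in 37 subfamilies. Of the 91, 39 had enough reads to be tested.

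The study asked what loss of PRDM16, a transcriptional regulator, in tubular epithelium does to the kidney after ischaemia. RNA-seq was made from kidney, which the methods describe as cortex, of 5 male mice aged 7 to 8 weeks. The strain is labelled C57BL/6J;129, and the titles name C57BL/6J. All mice carried the floxed Prdm16 allele on both chromosomes, with exon 9 between the loxP sites. The 2 Prdm16fl/fl mice, numbered 1 and 3, had no Cre and are the controls. The 3 Ksp-Cre/Prdm16fl/fl mice, numbered 1, 2 and 3, also carried Cre under the promoter of kidney-specific cadherin, which drives it in tubular epithelium. Both groups had unilateral ischaemia-reperfusion injury (UIRI): 1 renal pedicle was clamped for 35 minutes at 38.5 °C, the other kidney was removed on day 10, and tissue was taken 24 hours later, on day 11. No uninjured kidney is analysed here, so every comparison is between injured kidneys.

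Cytochrome P450 enzymes are haem proteins that insert an oxygen atom into their substrate, using electrons passed on by a reductase in the endoplasmic reticulum or by a ferredoxin in mitochondria. The liver is their main site, and in the kidney they are found mostly in the proximal tubule. Renal members of the Cyp2 and Cyp4 families turn arachidonic acid into epoxides and hydroxylated products that act on vessel tone and salt transport, and others act on drugs, steroids, sterols and retinoic acid.

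Several of these genes are near copies of each other, and which copy a read is counted for rests on few bases. Among the 39 tested genes, 8 shared at least one window of 150 bases, the read length, with another Cyp gene of the GENCODE M21 transcripts (GRCm38). None shared more than 10% of its windows. The genes of the 3 pairs below are described later. For each, the stretch of 60 coding bases with the most differences, inside 1 exon of both genes, is shown with the differing bases in capitals. Cyp2a4 and Cyp2a5 lie on chromosome 7 and are 98.4% identical over their coding sequence of 1482 bases. Their stretches are in exon 2 at chr7:26307666-26307725 and chr7:26835811-26835870, plus strand, and differ at 3 bases.
Cyp2a4: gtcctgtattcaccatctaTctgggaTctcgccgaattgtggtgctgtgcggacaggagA
Cyp2a5: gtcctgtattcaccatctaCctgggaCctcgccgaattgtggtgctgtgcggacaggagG
Cyp2d12 and Cyp2d9, of the Cyp2d cluster on chromosome 15, are 92.1% identical. Their stretches are in exon 9 at chr15:82559274-82559333 and chr15:82456687-82456746, plus strand, and differ at 12 bases.
Cyp2d12: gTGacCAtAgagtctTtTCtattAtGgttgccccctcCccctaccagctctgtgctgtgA
Cyp2d9: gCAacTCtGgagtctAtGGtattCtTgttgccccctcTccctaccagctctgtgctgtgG
Cyp4a10 and Cyp4a31, on chromosome 4, are 96.6% identical. Their stretches are in exon 1 at chr4:115518427-115518486 and chr4:115563822-115563881, plus strand, and differ at 6 bases.
Cyp4a10: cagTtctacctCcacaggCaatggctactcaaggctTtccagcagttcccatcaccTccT
Cyp4a31: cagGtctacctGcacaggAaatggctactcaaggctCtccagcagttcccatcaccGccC

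The likeness of Cyp2a4 and Cyp2a5 goes on upstream. The 120 bases before each start in RefSeq (GRCm38.p6) are printed because these genes later part in 1 mouse, and capitals mark TATAAA. They lie at chr7:26307072-26307191 and chr7:26835219-26835338, plus strand.
Cyp2a4 upstream: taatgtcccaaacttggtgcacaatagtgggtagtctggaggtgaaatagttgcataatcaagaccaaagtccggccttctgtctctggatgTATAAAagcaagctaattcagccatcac
Cyp2a5 upstream: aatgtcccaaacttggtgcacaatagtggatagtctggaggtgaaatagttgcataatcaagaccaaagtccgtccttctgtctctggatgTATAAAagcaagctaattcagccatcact
With a shift of 1 base, 249 bases before the starts could be laid side by side, and 4 of them differed. TATAAA, searched on the sense strand of the 40 bases before the start, was present in 14 of the 72 members found in the promoter table (19.4%), against 2.8% of 27025 gene symbols. Among the tested genes with an entry, 4 of 29 held it: Cyp1a1, Cyp2a4, Cyp2a5 and Cyp2e1.

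Library totals ran from 14939040 to 16425161 counts, and 3 counts correspond to 0.183 to 0.201 CPM, the counts of a gene in each 1000000 counted reads. Prdm16 itself, counted over the whole gene and not over the floxed exon, had 375 and 279 counts in the Prdm16fl/fl mice and 302, 287 and 270 in the Ksp-Cre/Prdm16fl/fl mice (log2 fold change -0.38, edgeR adjusted p = 0.26), so the gene total does not check the genotype. Ksp-Cre/Prdm16fl/fl mouse 3 stood apart: it was the highest library for 32.0% and the lowest for 32.0% of all 16394 tested genes, where the other libraries reached at most 22.4%. For the 39 tested P450 genes it was the highest in 15 and the lowest in 12. The lowest library was more often Ksp-Cre/Prdm16fl/fl mouse 1, in 14 of the 39 (35.9%, against 16.5% of all genes), while the 12 of mouse 3 (30.8%) are near its share of all genes. Fold changes without mouse 3 stand beside those with it where a call turned on this mouse.

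Most of the family was not detected or nearly so. No read was counted in any library for 20 of the 91 genes, 39 had at most 3 counts in every library, and the 52 that were not tested reached 12 counts at most (Cyp2t4). A count of 0 allows up to 3 counts, so these genes were not detectable at this depth rather than absent. Among them were 14 of the 15 Cyp2c genes, 6 of the 7 Cyp3a genes, and Cyp7a1, the rate-limiting enzyme of bile acid synthesis, which had no read. All 6 genes of steroid hormone synthesis (Cyp11a1, Cyp11b1, Cyp11b2, Cyp17a1, Cyp19a1 and Cyp21a1) were too low to test, with 8 counts at most, for Cyp17a1 in Ksp-Cre/Prdm16fl/fl mouse 3.

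The kidney's P450 transcripts came from few genes. On the scale of transcripts in each 1000000 (TPM), which corrects for gene length and so allows levels of different genes to be set side by side, the 10 most abundant members made up 80.5% to 89.4% of the family's sum in each library. In order of mean level they were Cyp4b1 (828 TPM), Cyp2e1 (756), Cyp2j5 (539), Cyp4a10 (427), Cyp4a31 (393), Cyp2a5 (358), Cyp2a4 (213), Cyp4a14 (182), Cyp2j13 (146) and Cyp2j11 (68.8). Their libraries overlap between neighbours of this order. The summed level of all members was 5540 and 5358 TPM in the Prdm16fl/fl mice. With Cre it was 2697, 3834 and 5220 TPM for mice 1, 2 and 3. The 3 sums with Cre were below both sums without it, but that of mouse 3 lay close to the controls. Its make-up was different: Cyp2a and Cyp4a genes contributed 1020 and 1598 TPM there, and Cyp2j genes 438 TPM, against 959 TPM or more for Cyp2j in each control. In bulk tissue, fewer cells of a type and less RNA per cell cannot be told apart.

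**Figure D1:**
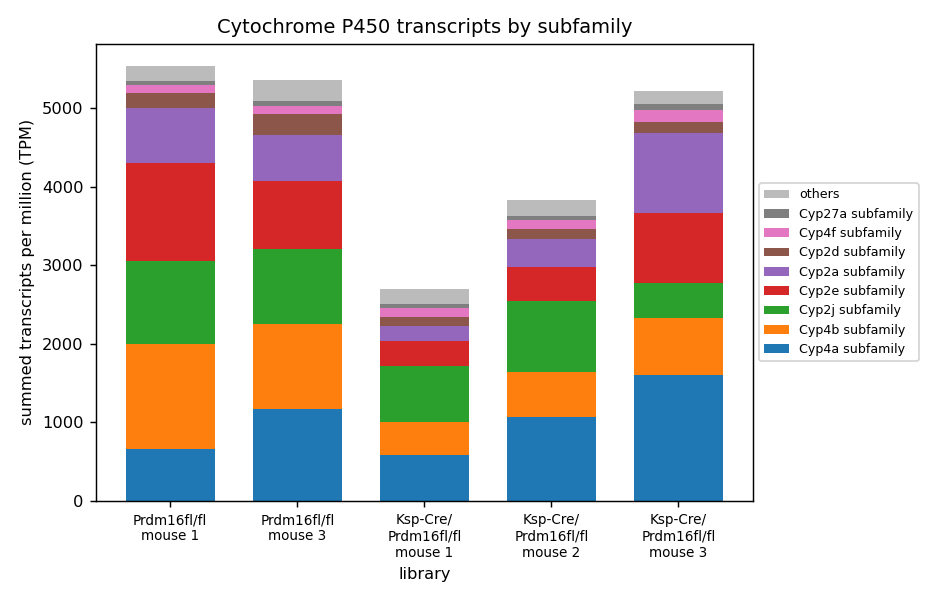
Stacked bars show the summed TPM of the P450 genes in each library, split into the 8 most abundant subfamilies and all others. The bars of the Prdm16fl/fl mice reach 5540 and 5358 TPM, and that of Ksp-Cre/Prdm16fl/fl mouse 3 reaches 5220 TPM with a thick Cyp4a and Cyp2a layer and a thin Cyp2j layer.

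Fold changes below compare Ksp-Cre/Prdm16fl/fl with Prdm16fl/fl mice in edgeR's quasi-likelihood test on counts, and values per library are CPM after TMM scaling. A gene was called when the adjusted p was under 0.05 and the log2 fold change at least 1 in size. By this rule 1 of the 39 tested members, Cyp2d12, was called lower, where 0.628% of all tested genes were called lower, and 0 members were called higher, where 0.0793% were. At an unadjusted p under 0.05, 11 members were lower (11.2% of all genes) and 2 were higher (7.64% of all genes). In 14 members every Ksp-Cre/Prdm16fl/fl library lay below both Prdm16fl/fl libraries, against 21.3% of all genes, and in 4 every one lay above, against 20.3%. Such separation is counted in CPM here and below, and some of the genes, such as Cyp2j13, overlap in TPM. The median log2 fold change was -0.16 over the 39 members and 0.04 over all genes tested, and without Ksp-Cre/Prdm16fl/fl mouse 3 it was -0.50 over the members still tested and 0.02 over all genes. Of the 39, 3 passed the filter on low counts through 1 group only: Cyp1a1 and Cyp2d12 through the Prdm16fl/fl mice and Cyp26a1 through the Ksp-Cre/Prdm16fl/fl mice. The counts and median over tested members, and the tests of these 3 genes, are therefore a description.

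**Figure D2:**
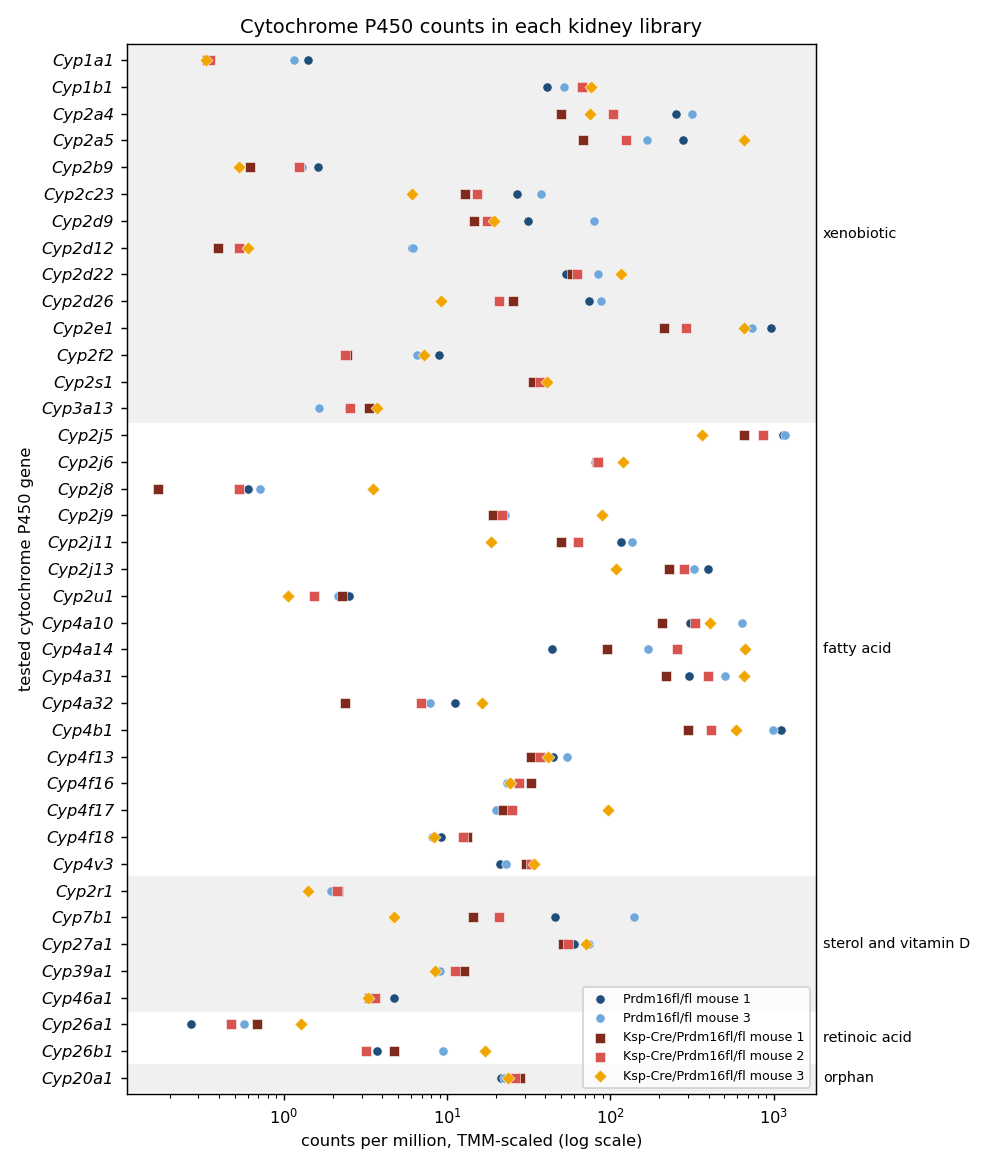
Each row is 1 of the 39 tested P450 genes, grouped by the role of its subfamily, and each point is the CPM of 1 library on a log axis, with circles for Prdm16fl/fl and squares or a diamond for Ksp-Cre/Prdm16fl/fl mice. Cyp2d12, Cyp2a4 and Cyp2d26 show the groups apart, and the diamond of mouse 3 lies far to the right for Cyp2a5, Cyp2j9, Cyp4a14 and Cyp4f17.

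Among the enzymes of drug and toxin metabolism (subfamilies Cyp1a to Cyp3a without Cyp2j, Cyp2r and Cyp2u, 49 genes of which 14 were tested), 1 gene was called (0.628% of all genes lower). In 8 all Ksp-Cre/Prdm16fl/fl libraries lay below both controls (21.3% of all genes), and in 2, Cyp1b1 and Cyp3a13, all lay above (20.3%). Their median log2 fold change was -1.04. Cyp2d12 (chromosome 15, 82439244 to 82443614 in the deposited tables) had 90 and 86 counts in the Prdm16fl/fl mice and 7, 9 and 9 counts in the Ksp-Cre/Prdm16fl/fl mice. That is 6.12 ± 0.0731 CPM (SD, n = 2) against 0.51 ± 0.103 CPM (SD, n = 3), and the groups do not come near each other. The log2 fold change was -3.57 ± 0.30 (SE), with an edgeR adjusted p of 0.0242. Cyp2d12 passed the filter on low counts only through the Prdm16fl/fl mice, where it is high, so its call is a description. The fold held without any 1 mouse, from -3.70 to -3.42, while the call was lost without Prdm16fl/fl mouse 1 or 3 or without Ksp-Cre/Prdm16fl/fl mouse 1 or 2, and the adjusted p ran from 2.4e-11 to 0.49 over the alternatives. It is a low gene, at 7.65 TPM or more in each control, and its capitals above show where reads separate it from Cyp2d9.

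The other tested Cyp2d genes did not pass the test. Cyp2d26 had 74.0 and 88.0 CPM in the Prdm16fl/fl mice and 25.4, 20.7 and 9.20 CPM in the Ksp-Cre/Prdm16fl/fl mice. The groups do not overlap, with mouse 3 lowest (log2 fold change -2.13 ± 0.39, edgeR adjusted p = 0.062; -1.81 and called without mouse 3). Cyp2d9, a testosterone hydroxylase known for its male-biased level in mice, had 31.4 and 80.0 CPM against 14.7, 17.6 and 19.5 CPM. The 3 mice with Cre were alike and the 2 controls were not (log2 fold change -1.69 ± 0.38, edgeR adjusted p = 0.092; -1.78 and called without mouse 3). Cyp2d22 did not share this pattern: it had 53.7 and 84.0 CPM in the controls and 58.4, 62.3 and 116 CPM in the Ksp-Cre/Prdm16fl/fl mice, which overlap (log2 fold change 0.20 ± 0.35). The remaining 4 Cyp2d genes had 3 counts at most.

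Cyp2a4 and Cyp2a5, so alike in sequence, differed in their pattern across mice. Cyp2a4, a steroid hydroxylase, had 253 and 315 CPM in the Prdm16fl/fl mice and 49.9, 104 and 75.4 CPM in the Ksp-Cre/Prdm16fl/fl mice. All 3 were well below both controls (log2 fold change -1.90 ± 0.30, edgeR adjusted p = 0.0523), and without mouse 3 the value was -1.89 and called. Cyp2a5, known for hydroxylating coumarin and nicotine, had 277 and 167 CPM in the controls and 68.2, 124 and 656 CPM in the Ksp-Cre/Prdm16fl/fl mice. Mouse 3 was 6.82 times the mean of mice 1 and 2 for Cyp2a5 and 0.98 times it for Cyp2a4. The ratio of Cyp2a5 to Cyp2a4 on the TPM scale was 1.09 and 0.53 in the controls, 1.37 and 1.20 with Cre in mice 1 and 2, and 8.70 in mouse 3. Over all mice the log2 fold change of Cyp2a5 was 0.35 ± 0.93 (edgeR adjusted p = 0.87); without mouse 3 it was -1.21 (adjusted p = 0.0241), and over all alternatives the adjusted p ran from 0.0241 to 0.998. Of the windows of 150 bases, 4.2% in Cyp2a4 and 5.8% in Cyp2a5 occur in another Cyp gene, and how such reads were counted is not given in the sources used here.

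Cyp2e1, which oxidises ethanol and small solvents, had 958 and 739 CPM in the Prdm16fl/fl mice and 213, 289 and 659 CPM in the Ksp-Cre/Prdm16fl/fl mice. In CPM the 3 lay below both controls, with mouse 3 close to them (log2 fold change -1.13 ± 0.47, edgeR adjusted p = 0.27, and -1.75 and called without mouse 3). In TPM the groups overlapped, with 894 in Ksp-Cre/Prdm16fl/fl mouse 3 and 873 in Prdm16fl/fl mouse 3. Cyp2f2, known from the airway for its action on naphthalene, had the same shape at a low level, with 8.97 and 6.53 CPM against 2.44, 2.36 and 7.26 CPM. Here mouse 3 lay between the controls (log2 fold change -0.95 ± 0.54, edgeR adjusted p = 0.39; -1.69 and called without mouse 3). Cyp2c23, an arachidonic acid epoxygenase of the kidney and the only Cyp2c gene tested, had 26.7 and 37.7 CPM against 12.9, 15.2 and 6.13 CPM. Mouse 3 was the lowest for this gene (log2 fold change -1.49 ± 0.38, edgeR adjusted p = 0.12; -1.19 and called without mouse 3).

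The Cyp1 genes, known as targets of the aryl hydrocarbon receptor, went apart. Cyp1a1 was at the edge of detection, with 21 and 16 counts in the Prdm16fl/fl mice and 6, 6 and 5 counts in the Ksp-Cre/Prdm16fl/fl mice (log2 fold change -1.88 ± 0.37, edgeR adjusted p = 0.073; -1.86 and called without mouse 3). Cyp1b1, which acts on oestrogens and polycyclic hydrocarbons, had 41.1 and 52.1 CPM against 67.5, 66.8 and 76.0 CPM. Every mouse with Cre was above both controls, though the difference did not pass the test (log2 fold change 0.59 ± 0.15, edgeR adjusted p = 0.11). The receptor gene Ahr had 17.5 and 12.9 CPM against 22.3, 19.0 and 16.2 CPM, which overlap. Of the others, Cyp2s1 had 33.4 to 41.1 CPM in all 5 mice, and Cyp3a13 and Cyp2b9 were at 3.73 CPM or less. At these low levels all mice with Cre lay above both controls for Cyp3a13 and, in CPM, below them for Cyp2b9, and neither gene passed the test. In TPM Cyp2b9 overlapped, with 1.78 and 1.29 against 0.80, 1.60 and 0.61.

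**Figure D3:**
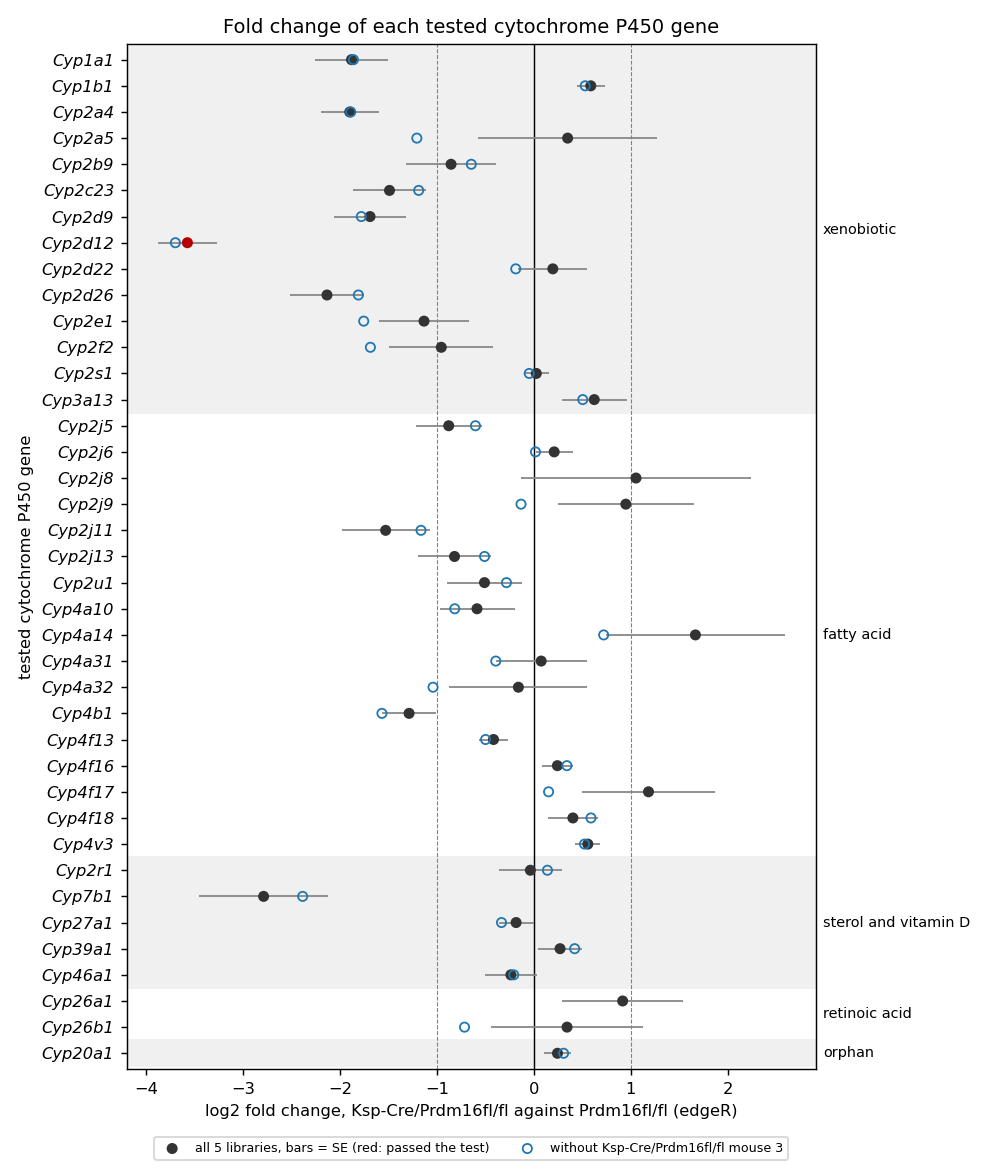
Filled points are the edgeR log2 fold changes of the 39 tested P450 genes with bars of 1 SE, red where the test was passed, and open points are the values with Ksp-Cre/Prdm16fl/fl mouse 3 left out, for genes still tested. Cyp2d12 is red at -3.57, and the open point of Cyp2a5 lies at -1.21 while its filled point lies at 0.35.

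Among the fatty acid and eicosanoid enzymes (Cyp2j, Cyp2u and the Cyp4 subfamilies, 25 genes of which 17 were tested), 0 were called in either direction, 5 had all Ksp-Cre/Prdm16fl/fl libraries below both controls (21.3% of all genes) and 1 had all above (20.3%). Their median log2 fold change was 0.08. Cyp4b1, a fatty acid hydroxylase that also activates furan toxins, was the most abundant member. It had 1116 and 993 CPM in the Prdm16fl/fl mice and 300, 411 and 586 CPM in the Ksp-Cre/Prdm16fl/fl mice. The groups are far apart compared with their spread, at 1054 ± 87.0 CPM (SD, n = 2) and 432 ± 144 CPM (SD, n = 3), yet the test was not passed (log2 fold change -1.29 ± 0.28, edgeR adjusted p = 0.088; -1.57 and called without mouse 3).

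The Cyp2j genes, a cluster on chromosome 4 that includes arachidonic acid epoxygenases, did not move together. Cyp2j5, abundant in mouse kidney, had 1137 and 1168 CPM in the controls and 655, 861 and 366 CPM in the Ksp-Cre/Prdm16fl/fl mice. Cyp2j11 had 117 and 137 CPM against 50.0, 63.0 and 18.7 CPM, and Cyp2j13 had 398 and 327 CPM against 229, 281 and 108 CPM. In CPM the groups do not overlap in these 3 genes and mouse 3 was the lowest. In TPM Cyp2j13 overlapped, with 208 and 155 against 139, 171 and 58.6. The log2 fold changes of the 3 genes were -0.88, -1.53 and -0.82, with edgeR adjusted p of 0.24, 0.16 and 0.32. Without mouse 3 the values were -0.60, -1.16 and -0.51, and that of Cyp2j11 was called. Cyp2j9 instead had 22.1 and 22.7 CPM in the controls and 19.1, 21.7 and 89.3 CPM in the Ksp-Cre/Prdm16fl/fl mice. The other libraries were alike and mouse 3 alone was high, so that the log2 fold change was 0.95 ± 0.70 with it and -0.13 without it. Cyp2j8 was also highest in mouse 3, at 3.53 CPM where the others reached 0.72 CPM at most, and Cyp2j6 had 81.2 to 84.1 CPM in 4 mice and 120 CPM in mouse 3. The ratio of Cyp2j9 to Cyp2j5 in TPM was 0.03 in both controls, 0.05 and 0.04 in mice 1 and 2, and 0.39 in mouse 3.

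The Cyp4a genes, fatty acid omega-hydroxylases known as targets of the receptor PPARα, varied widely within each group. Cyp4a14 had 44.0 and 171 CPM in the Prdm16fl/fl mice and 95.5, 258 and 670 CPM in the Ksp-Cre/Prdm16fl/fl mice. Both groups spread over a several-fold range and overlap (log2 fold change 1.67 ± 0.92, edgeR adjusted p = 0.39; 0.72 without mouse 3). Cyp4a10 had 308 and 639 CPM against 208, 329 and 410 CPM. Cyp4a31 had 302 and 504 CPM against 218, 395 and 662 CPM. Mouse 3 was the highest of all libraries for Cyp4a14 and Cyp4a31, and Prdm16fl/fl mouse 3 was for Cyp4a10. The ratio of Cyp4a14 to Cyp4a10 in TPM was above the controls' 0.09 and 0.17 in each mouse with Cre, at 0.29, 0.49 and 1.03, a description that was not tested. Ppara itself had 117 and 122 CPM in the controls and 75.2, 109 and 158 CPM in the Ksp-Cre/Prdm16fl/fl mice, which overlap. Windows shared with another Cyp gene made up 4.3% of Cyp4a10, 4.2% of Cyp4a31 and 8.0% of Cyp4a32.

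The Cyp4f and Cyp4v genes, which oxidise leukotrienes and long fatty acids, were at a middling level. Cyp4v3 had 21.1 and 23.0 CPM in the controls and 30.4, 32.8 and 34.1 CPM in the Ksp-Cre/Prdm16fl/fl mice. Each of the 3 was above both controls with a narrow spread (log2 fold change 0.56 ± 0.13, edgeR adjusted p = 0.098), below the 1 on the log2 scale that a call needs. Cyp4f13 had 44.3 and 54.3 CPM against 32.7, 37.0 and 41.3 CPM, without overlap in the other direction (log2 fold change -0.41 ± 0.15). Cyp4f17 was another gene high in mouse 3 alone, with 22.3 and 19.9 CPM in the controls and 21.9, 24.9 and 97.2 CPM with Cre (log2 fold change 1.18 ± 0.69; 0.15 without mouse 3). Cyp2u1, a hydroxylase of long fatty acids and the only gene of its subfamily, had 2.49 and 2.15 CPM against 2.27, 1.54 and 1.07 CPM, which overlap (log2 fold change -0.51 ± 0.39).

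**Figure D4:**
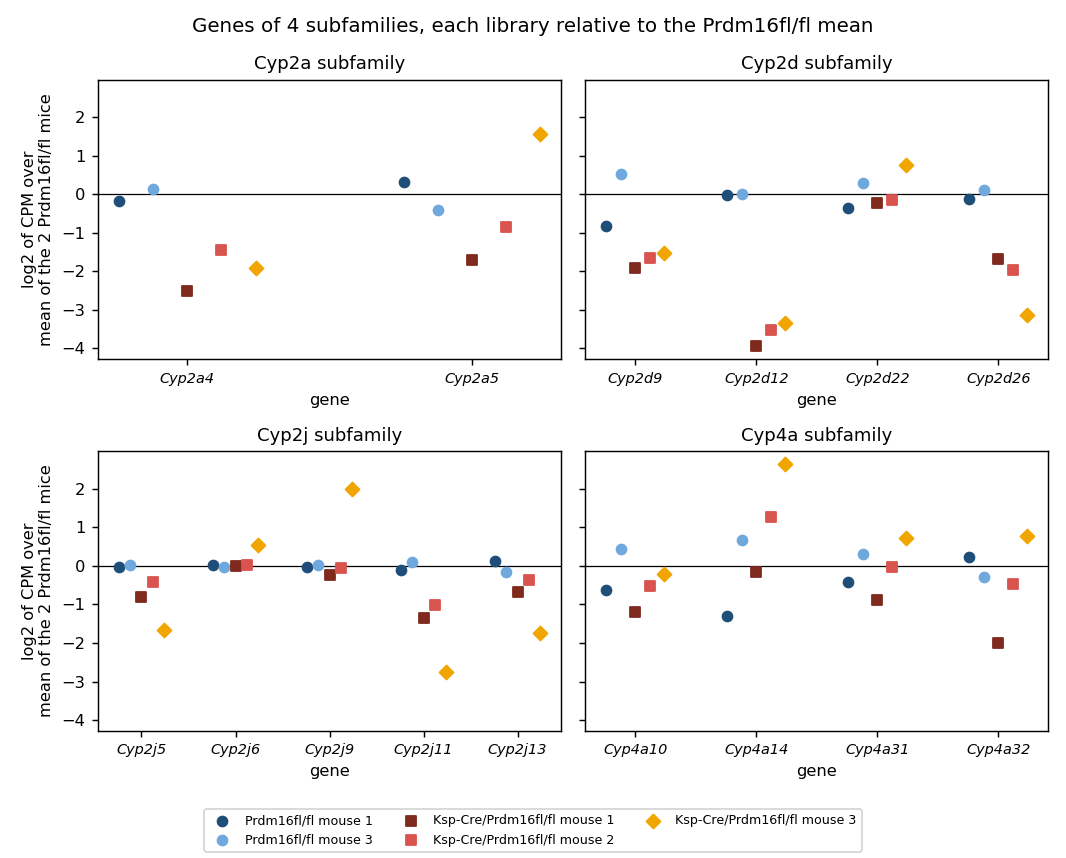
For the tested genes of 4 subfamilies with a mean of at least 3 TPM, each point is the log2 ratio of a library's CPM to the mean of the 2 Prdm16fl/fl mice. The diamond of Ksp-Cre/Prdm16fl/fl mouse 3 lies above 1 for Cyp2a5, Cyp2j9 and Cyp4a14 and below -1 for Cyp2a4, Cyp2d26 and Cyp2j11, so genes of 1 subfamily part in this mouse.

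Of the sterol enzymes, 7 genes including Cyp2r1 of vitamin D activation, 5 were tested and 0 were called. Cyp7b1, an oxysterol and steroid hydroxylase, had 45.8 and 139 CPM in the Prdm16fl/fl mice and 14.5, 20.9 and 4.73 CPM in the Ksp-Cre/Prdm16fl/fl mice. The controls lay far apart from each other, and the groups did not overlap (log2 fold change -2.79 ± 0.66, edgeR adjusted p = 0.11; from -3.38 to -1.78 without 1 mouse, and -2.38 and called without mouse 3). Cyp27a1, the mitochondrial sterol hydroxylase, had 60.1 and 74.1 CPM against 51.5, 54.8 and 71.2 CPM, which overlap. Cyp39a1, Cyp46a1 and Cyp2r1 had log2 fold changes of 0.27 ± 0.23, -0.24 ± 0.27 and -0.03 ± 0.33. The retinoic acid hydroxylases Cyp26a1 and Cyp26b1 were highest in mouse 3, at 1.27 and 17.1 CPM, and overlapped otherwise. Cyp20a1, whose substrate is not established, had 21.4 and 22.4 CPM against 28.0, 26.1 and 23.8 CPM, a small difference without overlap (log2 fold change 0.24 ± 0.13).

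Reads were also summed within each subfamily. Where each shared read was counted for a single member, the sum takes out how such reads were split between the members summed. It does not correct for shared reads that were dropped or counted repeatedly. Nor does it for a share with a copy outside the name rule such as the pseudogene Cyp2a21-ps. Of the 24 subfamily sums tested, 0 were called lower (0.623% of the features of that table) and 0 higher (0.0794%) by edgeR. At an unadjusted p under 0.05, 6 were lower (11.2% of the features) and 2 higher (7.65%), and DESeq2 called 3 lower (2.3%), Cyp2c, Cyp4b and Cyp7b, and 0 higher (0.69%). Without Ksp-Cre/Prdm16fl/fl mouse 3, edgeR called 8 lower (3.09%), which were Cyp1a, Cyp2a, Cyp2c, Cyp2d, Cyp2e, Cyp2f, Cyp4b and Cyp7b, and 0 higher (1.43%). The Cyp2d sum was 165 and 258 CPM in the controls and 99.0, 101 and 146 CPM in the Ksp-Cre/Prdm16fl/fl mice (log2 fold change -0.88 ± 0.25, edgeR adjusted p = 0.15; -1.08 without mouse 3). The Cyp2j sum was 1758 and 1736 CPM against 1036, 1311 and 705 CPM (-0.78 ± 0.27, edgeR adjusted p = 0.20; -0.57 without mouse 3). Both sums separated the groups. The Cyp2a sum, at 530 and 482 CPM against 118, 228 and 732 CPM, and the Cyp4a sum, at 665 and 1321 CPM against 523, 989 and 1758 CPM, did not. Without mouse 3 the log2 fold change of the Cyp2a sum went from -0.50 to -1.55 and that of the Cyp4a sum from 0.13 to -0.39.

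How many members were called depended on the tool and on which mice were included. DESeq2 with the same rule called 8 members lower (2.33% of all genes) and 0 higher (0.689%): Cyp2a4, Cyp2c23, Cyp2d9, Cyp2d12, Cyp2d26, Cyp2j11, Cyp4b1 and Cyp7b1. Without Ksp-Cre/Prdm16fl/fl mouse 3, edgeR called 12 members lower (3.1% of all genes), which are those 8 with Cyp1a1, Cyp2a5, Cyp2e1 and Cyp2f2, and 0 higher (1.43%). Without Ksp-Cre/Prdm16fl/fl mouse 1 or 2 edgeR called 0 members. The share of all genes called in those fits is not given, and whether this 0 is particular to the P450 genes was not tested. Leaving out 1 control leaves a lone control, and the log2 fold change of Cyp2d12 was then -3.59 or -3.56.

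The genes around the P450 enzymes gave 0 calls by edgeR among 42 tested in 4 lists (0.628% of all genes lower and 0.0793% higher). Without Ksp-Cre/Prdm16fl/fl mouse 3, 3 were called lower (3.1% of all genes) and 1 higher (1.43%). Those lower were Cyb5a, Hlf and Cyp51, at -1.05, -1.05 and -1.11, and the 1 higher was Ptgs2, at 1.34. Of the 9 electron donors, 5 had all Ksp-Cre/Prdm16fl/fl libraries below both controls (21.3% of all genes) and 1 had all above (20.3%), and their median log2 fold change was -0.37. The most abundant, Cyb5a, had 661 and 758 CPM in the controls and 324, 359 and 463 CPM in the Ksp-Cre/Prdm16fl/fl mice (log2 fold change -0.89 ± 0.19, edgeR adjusted p = 0.082). Por, the reductase that serves all microsomal P450 enzymes, had 244 and 253 CPM against 144, 162 and 271 CPM: mice 1 and 2 were low and mouse 3 was not (log2 fold change -0.37 ± 0.28; -0.70 without mouse 3). Fdx1, the mitochondrial ferredoxin, had 69.4 and 90.4 CPM against 47.2, 47.3 and 58.2 CPM, without overlap.

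Of 16 receptors and factors known to control P450 genes, 6 had all Ksp-Cre/Prdm16fl/fl libraries below both controls (21.3% of all genes) and 0 above (20.3%), with a median of -0.32. The circadian factor Tef had 384 and 395 CPM in the controls and 212, 226 and 225 CPM in the Ksp-Cre/Prdm16fl/fl mice. Its adjusted p passed the threshold and its fold did not reach the limit for a call (log2 fold change -0.82 ± 0.12, edgeR adjusted p = 0.0457). Its relatives Hlf and Dbp had log2 fold changes of -1.25 ± 0.22 and -0.86 ± 0.19 (edgeR adjusted p of 0.060 and 0.094). Hnf4a, the most abundant of the list on the TPM scale, had 654 and 664 CPM against 401, 580 and 550 CPM. In TPM it overlapped, with 319 and 294 against 229, 330 and 280. Of 12 further eicosanoid enzymes 1 lay wholly below (21.3% of all genes) and 2 wholly above (20.3%) the controls, with a median of 0.04, and Ephx2, the epoxide hydrolase that clears the epoxygenase products and the most abundant of them, had 481 and 532 CPM against 244, 336 and 582 CPM. Of 5 P450 genes outside the naming pattern (median -0.15), the most abundant, Cyp51 of cholesterol synthesis, had 146 and 205 CPM against 85.7, 76.5 and 26.1 CPM.

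Some lists of cell markers moved beside these values and others did so less or not at all. The 8 genes of the convoluted proximal tubule summed to 4474 and 3707 TPM in the Prdm16fl/fl mice. In the Ksp-Cre/Prdm16fl/fl mice they summed to 1923, 2126 and 1200 TPM. In CPM, 7 of these genes had all Ksp-Cre/Prdm16fl/fl libraries below both controls (21.3% of all genes), though Cubn overlapped in TPM. The 3 genes of the straight part summed to 618 and 713 TPM against 251, 356 and 264 TPM, with all 3 lower and without overlap (21.3% of all genes). The 4 injured tubule genes summed to 934 and 775 TPM against 2129, 2164 and 2770 TPM, with 3 of 4 above (20.3% of all genes). In CPM the 3 distal convoluted tubule genes also lay wholly lower (21.3% of all genes). In TPM Slc12a3 overlapped, and so did Trpm6, with 7.29 and 7.12 against 8.49, 7.65 and 5.75. The sums of this list overlapped too, at 673 and 391 TPM against 419, 292 and 88.5 TPM. The 5 fibroblast genes summed to 93.7 and 153 TPM against 251, 241 and 178 TPM, with 3 of 5 above (20.3% of all genes). In CPM, 2 of 3 thick ascending limb genes lay wholly lower, and 1 of 4 each for collecting duct and endothelium (21.3% of all genes). Wholly above were 1 of 4 neutrophil genes and 1 of 2 tested adipocyte genes (20.3% of all genes). Of 4 macrophage genes, 0 separated the groups. The thick ascending limb sums overlapped, at 2070 and 2555 TPM against 2318, 2069 and 920 TPM. Among the 50 tested genes of all 14 marker lists, 0 were called by edgeR with all mice (0.628% of all genes lower and 0.0793% higher). Without Ksp-Cre/Prdm16fl/fl mouse 3, 10 were called lower (3.1% of all genes) and 4 higher (1.43%). Among them were Slc34a1 at -1.68 and Havcr1 at 1.31. Hepatocyte genes, as a sign of liver tissue, included Alb at 0.69 to 2.17 TPM in all 5 libraries. The list summed to 45.3 and 74.9 TPM against 79.7, 90.5 and 268 TPM, of which Fgb held 241 TPM in Ksp-Cre/Prdm16fl/fl mouse 3. Its genes went apart: Alb and Apoa2 lay wholly below the controls (21.3% of all genes), with log2 fold changes of -1.35 and -1.51. Fgb lay wholly above (20.3%), at 3.27, and Serpina1a overlapped. The adrenal cortex list summed to 10.1 to 13.8 TPM, with Nr5a1 listed at 0 and Star at 78 to 126 counts in the 5 libraries. The part of these markers in the P450 values was not tested.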

How the data were processed

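RNA-seq libraries of 5 mice were analysed, 1 per mouse, paired-end with reads of 150 bases. The authors deposited, for each gene, a read count, TPM and FPKM. The submitters' processing notes name featureCounts 2.0.1 and DESeq2 1.16.1. The aligner, the mouse genome build and the strand and multi-mapping settings are not given in the sources used here, so reads of near-identical or overlapping genes cannot be assigned with certainty, and the coordinates of the tables are printed as deposited. The FPKM columns were not used. The deposited counts were tested with edgeR 4.0.16 (quasi-likelihood, filterByExpr, TMM) over 16394 genes, with Benjamini-Hochberg adjustment. DESeq2 1.42.0 and limma 3.58.1 on log2(TPM + 1) and log2(TPM + 0.1) were alternatives. The deposited TPM values served for levels between genes. The scripts were tested on simulated data. The members and gene lists were chosen with earlier results of these data known. Named genes were every called member, the 10 of highest mean TPM, the most abundant of each subfamily with a mean of at least 1 TPM, the 5 largest and 5 smallest fold changes at a mean log2 CPM of at least 0, and, of the lists around the P450 enzymes, called genes and the most abundant. Por, Fdx1, Ahr, Ppara, Tef, Hlf, Dbp, Cyp1a1, Cyp2c23, Cyp2j6, Cyp4a32, Cyp26a1, Ptgs2 and genes too low to test were added after their values were seen. Sequences come from GENCODE M21 and RefSeq. Prdm16fl/fl mouse 2 was not analysed here.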

Additional observations from a re-analysis of the deposited data

How the results depend on the processing

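Members called lower numbered 1 with all libraries (0.628% of all genes), 8 with DESeq2 (2.33%), 6 without the filter on low counts and 0 with the replicate block. The share of all genes is not given for the fits without the filter and with the block. In the block fit Ksp-Cre/Prdm16fl/fl mouse 2 stands alone in its block and little is left to estimate the spread, so its 0 says little about the members. Leaving out 1 Ksp-Cre/Prdm16fl/fl mouse gave 0 to 12, the latter without mouse 3 (3.1% of all genes). With at least 10 counts in every library the count was also 1, but that gene was Cyp2a4, since Cyp2d12 was not tested there. Subfamily sums called lower numbered 0 with all libraries (0.623% of the features of that table), 3 with DESeq2 (2.3%) and 2 without the filter. They numbered 0 with the replicate block and 0 to 8 without 1 Ksp-Cre/Prdm16fl/fl mouse, the latter without mouse 3 (3.09%). No alternative called a member or a subfamily sum higher. Deviations of same-numbered libraries from their group means had r of -0.002 and -0.025. With only 2 controls, the deviations of these mirror each other, so the values cannot decide whether the replicate numbers pair animals. Of 489 values of 33 named members, 438 kept their direction and side of the threshold, 22 became calls, 5 ceased to be, all of Cyp2d12, and 24 changed sign, none of a called gene. On TPM with 1 and with 0.1 added, the log2 fold change was 0.050 and 0.051 for Cyp27a1, -0.038 and -0.039 for Cyp2a5, 0.13 and 0.17 for Cyp2r1 and 0.013 and 0.024 for Cyp46a1. Cyp2r1 also had 0.086 with library size scaling and 0.10 with the length trend removed. With the replicate block, Cyp4a31 had -0.038 and Cyp2a5 -0.017. Without 1 mouse, Cyp2j9 ran from -0.13 to 1.31, Cyp4a10 from -1.02 to 0.034, Cyp4a31 from -0.39 to 0.49, Cyp26b1 from -0.71 to 1.2, Cyp2s1 from -0.046 to 0.10, Cyp2a5 from -1.21 to 0.82, Cyp2r1 from -0.14 to 0.14, Cyp46a1 from -0.47 to 0.042 and Cyp2d22 from -0.19 to 0.55. The median of all genes was 0.15 with library size scaling and 0.23 and 0.26 on TPM, so values there are relative to it. The causes were not tested. Leaving out 1 of the 2 control mice leaves a lone control, assumed to vary like the other group.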
